A study of Mus musculus with 3 samples.

Results

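The genes described here encode secreted ligands that act on blood and lymphatic vessels. They were chosen by name, as 9 genes of the VEGF, angiopoietin and apelin ligand families: Vegfa, Vegfb, Vegfc, Pgf, Angpt1, Angpt2, Angptl2, Angptl4 and Apln. Of these, 8 had a probe set of their own among the 19938 genes with a signal, 1 probe set each, and Angptl2 was not analysed here. Signals came from 3 samples of ureteric duct cells of CD-1 mice, taken from embryos of unknown sex at embryonic day 10.5 (Theiler stage 18), a single group with no second condition. All embryos carried the Tg(Hoxb7-EGFP)33Cos transgene, whose Hoxb7 promoter marks the nephric duct and its outgrowths with green fluorescent protein. After dissection and trypsin digestion, the fluorescent cells of 1 duct per sample were sorted, without pooling, and its RNA was amplified in 1 round before hybridisation to 1 array. Nothing in the labels says that the samples came from separate embryos, so the p-values cover no more than the spread among the 3 arrays, and that spread may be technical.

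VEGF family ligands bind receptor tyrosine kinases of endothelial cells: VEGF-A acts through Flt1 and Kdr, VEGF-B and placental growth factor (Pgf) through Flt1, and VEGF-C through Flt4, the receptor of lymphatic endothelium, with neuropilins as co-receptors. Angiopoietin 1 activates the receptor Tek, also called Tie2, and steadies vessels, while angiopoietin 2 mostly opposes it. Apelin signals through the G protein-coupled receptor Aplnr. In the developing kidney, epithelial and progenitor cells are a known source of VEGF-A for the vessels that grow in around them. With no unsorted or GFP-negative sample, a transcript in these arrays cannot be assigned to the duct cells themselves.

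Promoter sequences are shown for 3 of the ligand genes with a signal above background, to show the GC-rich DNA next to their starts. RefSeq's promoter table (GRCm38.p6) matched 6 of the 9 genes, Vegfa, Vegfb, Vegfc, Pgf, Angptl2 and Apln. Angpt1, Angpt2 and Angptl4 had no entry. The 150 bases before the annotated start are given 5′ to 3′, and capitals mark the letters GGGCGG or their reverse complement, the core of the GC box bound by Sp1-type factors.
Vegfa, chr17:46032378-46032527, minus strand: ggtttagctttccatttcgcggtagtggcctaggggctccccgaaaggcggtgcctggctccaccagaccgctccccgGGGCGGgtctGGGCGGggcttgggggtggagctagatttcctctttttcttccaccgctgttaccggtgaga
Vegfb, chr19:6987652-6987801, minus strand: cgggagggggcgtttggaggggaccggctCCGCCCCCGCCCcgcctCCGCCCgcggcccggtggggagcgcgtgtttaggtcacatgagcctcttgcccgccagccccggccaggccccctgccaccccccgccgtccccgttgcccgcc
Apln, chrX:48034854-48035003, minus strand: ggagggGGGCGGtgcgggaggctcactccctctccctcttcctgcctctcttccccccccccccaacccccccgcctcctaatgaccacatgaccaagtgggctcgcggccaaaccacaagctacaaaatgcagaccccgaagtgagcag

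The motif GGGCGG was searched on both strands, overlaps counted, in the 250 bases before each start. It was held by at least 1 start of all 6 matched genes and by 7 of their 8 windows, against 32.7% of the 32851 promoter windows in the table. Vegfb had 4 matches, the window of Vegfa shown above had 2 and Apln had 1. Vegfc, with 2, and the start of Pgf at which 2 matches lay also held it, so the motif was found beside genes above and below background. A match is a description of the letters and not of binding.

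The signal of each gene was compared with its array's background, since the design holds no other contrast. Background was taken from 1210 probe sets of odorant and pheromone receptor genes, which belong to sensory neurons, and the cutoff was their 95th percentile, at 5.70, 5.73 and 5.71 log2 units on arrays 1, 2 and 3. A gene is said to lie above background when limma's one-sided test of its distance to the cutoff gave a Benjamini-Hochberg adjusted p under 0.05. Values are log2 signals. Probe sets differ in affinity, so the signals do not rank the genes by transcript amount.

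Of the 8 measured ligand genes, 6 lay above background, against 56.1% of all genes. These were Angpt1, Vegfb, Vegfa, Angpt2, Apln and Angptl4, while Vegfc and Pgf did not pass. At the stricter 99th percentile of the background probe sets, 3 remained, Angpt1, Vegfb and Vegfa, against 36.1% of all genes. These 3 also passed with the cutoff raised by 1 log2 unit, which 28.3% of all genes did. The median of the 8 mean signals was 6.46, and that of all genes 6.04.

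**Figure D1:**
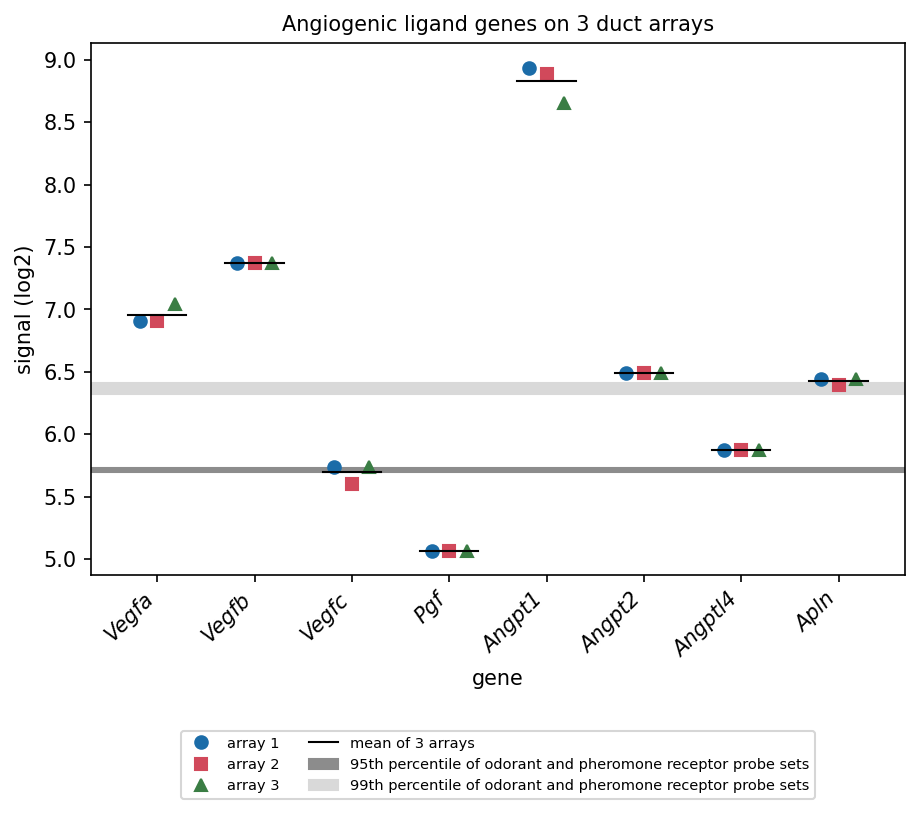
Log2 signal (y axis) of the 8 measured ligand genes (x axis) on each of the 3 arrays, with the mean as a black line and the 95th and 99th percentiles of the background probe sets as grey bands spanning the arrays. Angpt1, Vegfb and Vegfa lie clear of both bands, Angpt2 and Apln lie at the edge of the upper band, Angptl4 lies between them, and Vegfc straddles the lower band.

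Angpt1, the Tek agonist, read 8.94, 8.88 and 8.66 on arrays 1, 2 and 3. Array 3 was lowest, and all 3 values exceeded every one of the 1210 background probe sets of their array. The mean of 8.83 ± 0.15 (SD, n = 3) lay 3.12 log2 units above the mean cutoff (limma, adjusted p = 3.72e-05). Angpt1 was also the only ligand gene among the 8 with a different value on each array.

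Vegfb, a Flt1 ligand best known in heart and muscle, read 7.37 on all 3 arrays, 1.66 log2 units above the mean cutoff (limma, adjusted p = 5.49e-06). Only 2 or 3 background probe sets were brighter on any array. Vegfa, the principal growth factor of endothelial cells, read 6.91 on arrays 1 and 2 and 7.05 on array 3. Its mean of 6.96 ± 0.08 (SD, n = 3) lay 1.24 log2 units above the mean cutoff (limma, adjusted p = 9.71e-05), and 3 or 4 background probe sets were brighter. The spread of Vegfa over the arrays was small beside its distance to background, but arrays 1 and 2 held the same value, so the SD may understate the error.

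Vegfc, the lymphatic ligand, read 5.74, 5.60 and 5.74 on arrays 1, 2 and 3. It lay above the cutoff on arrays 1 and 3 and below it on array 2, and its mean of 5.70 ± 0.08 (SD, n = 3) lay at the cutoff (limma, adjusted p = 1). With the 90th percentile as the cutoff Vegfc passed (limma, adjusted p = 0.00618). Pgf, the placental growth factor gene, read 5.07 on all 3 arrays, below the cutoff on each, with 188 to 197 of the background probe sets brighter. Neither gene was detectable above the 95th percentile of background, and values this low leave the presence of a transcript unknown.

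Angpt2, the context-dependent Tek ligand, read 6.49 on all 3 arrays, 0.78 log2 units above the mean cutoff (limma, adjusted p = 2.58e-05). It exceeded the 99th percentile of background on each array, by 0.11 log2 units on average, but did not pass the test there (limma, adjusted p = 0.056). Apln, the apelin gene, read 6.44, 6.39 and 6.44, with array 2 lowest. Its mean of 6.42 ± 0.03 (SD, n = 3) lay 0.71 log2 units above the mean cutoff (limma, adjusted p = 0.000113) and 0.05 above the 99th percentile, where it did not pass (limma, adjusted p = 0.323). Angptl4, a fasting- and hypoxia-induced inhibitor of lipoprotein lipase, read 5.87 on all 3 arrays, 0.16 log2 units above the mean cutoff (limma, adjusted p = 0.0015). The Angptl4 call ended at the 99th percentile, without array 3, and when tied probe sets were given the median spread of the untied (limma, adjusted p = 0.0631).

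Exact ties bear on these error estimates. Of the 8 genes, 4 (Vegfb, Pgf, Angpt2 and Angptl4) held a single value on all 3 arrays, as did 50.8% of all genes, and 3 (Vegfa, Vegfc and Apln) held the same value on a pair of arrays. An SD of 0 then understates the error, and the p of such a gene is likely too small. limma's moderated variance draws on all probe sets, so ties also shift the p of untied genes. With tied probe sets given the median spread of the untied, the limma adjusted p of Angpt2 rose from 2.58e-05 to 0.000155. That of Vegfb rose from 5.49e-06 to 7.34e-06, while that of Angpt1, which had no tie, fell from 3.72e-05 to 1.15e-06. The value of Pgf was held on all 3 arrays by 123 other probe sets, 7 of them background probe sets. That of Angptl4 was held on all 3 arrays by 67 others. Angpt2 shared its value with 1 other probe set, and Vegfa, Vegfb, Vegfc, Angpt1 and Apln shared the set of 3 values with none. On single arrays, however, the value of Vegfa was held by 16 other probe sets on array 1, 23 on array 2 and 0 on array 3, and that of Apln by 12, 55 and 10. The gene specificity of a shared value was not tested.

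The receptors of these ligands were measured in the same samples. All 9 genes of the list of receptors and co-receptors lay above background, against 56.1% of all genes, and 8 did at the 99th percentile, all but Flt4, against 36.1% of all genes. Aplnr, the apelin receptor, read 10.88, 9.45 and 10.68 on arrays 1, 2 and 3, with a mean of 10.34 ± 0.77 (SD, n = 3). Kdr, the main signalling receptor for VEGF-A, read 8.70, 7.68 and 8.70, and Tek 8.22, 7.73 and 8.26. In each of these genes array 2 was the lowest and the other arrays lay close together.

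The other VEGF receptor genes were Flt1, a high-affinity binder of VEGF-A and VEGF-B, at 7.26 ± 0.23, and Flt4 at 6.42 ± 0.26 (SD, n = 3). The co-receptor genes Nrp1 and Nrp2 read 8.35 ± 0.04 and 7.40 ± 0.15 (SD, n = 3). Tie1, the orphan partner of Tek, read 6.69 ± 0.29, and Ptprb, the vascular phosphatase that acts on Tek, 6.64 ± 0.14 (SD, n = 3). Nrp1 was the exception to the pattern of the arrays, with 8.39, 8.33 and 8.33, and is widely expressed outside vessels.

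Other ligands of the same families were mostly at background, with 2 of 7 measured genes above it, against 56.1% of all genes. At the 99th percentile 1 passed, against 36.1% of all genes. Apela, which encodes the second ligand of Aplnr, read 10.12, 9.78 and 9.09 on arrays 1, 2 and 3. Its mean of 9.66 ± 0.52 (SD, n = 3) lay 3.95 log2 units above the mean cutoff (limma, adjusted p = 0.000496), and array 3 was the lowest, as for Angpt1. Angptl8, a regulator of lipoprotein lipase, read 6.32 ± 0.07 (SD, n = 3) and passed at the 95th but not at the 99th percentile. The genes that did not pass were Vegfd at 5.14 (a single value), Angpt4 at 5.52 ± 0.05, Angptl1 at 4.72 ± 0.17, Angptl6 at 5.62 ± 0.16 and Angptl7 at 5.39 (a single value).

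**Figure D2:**
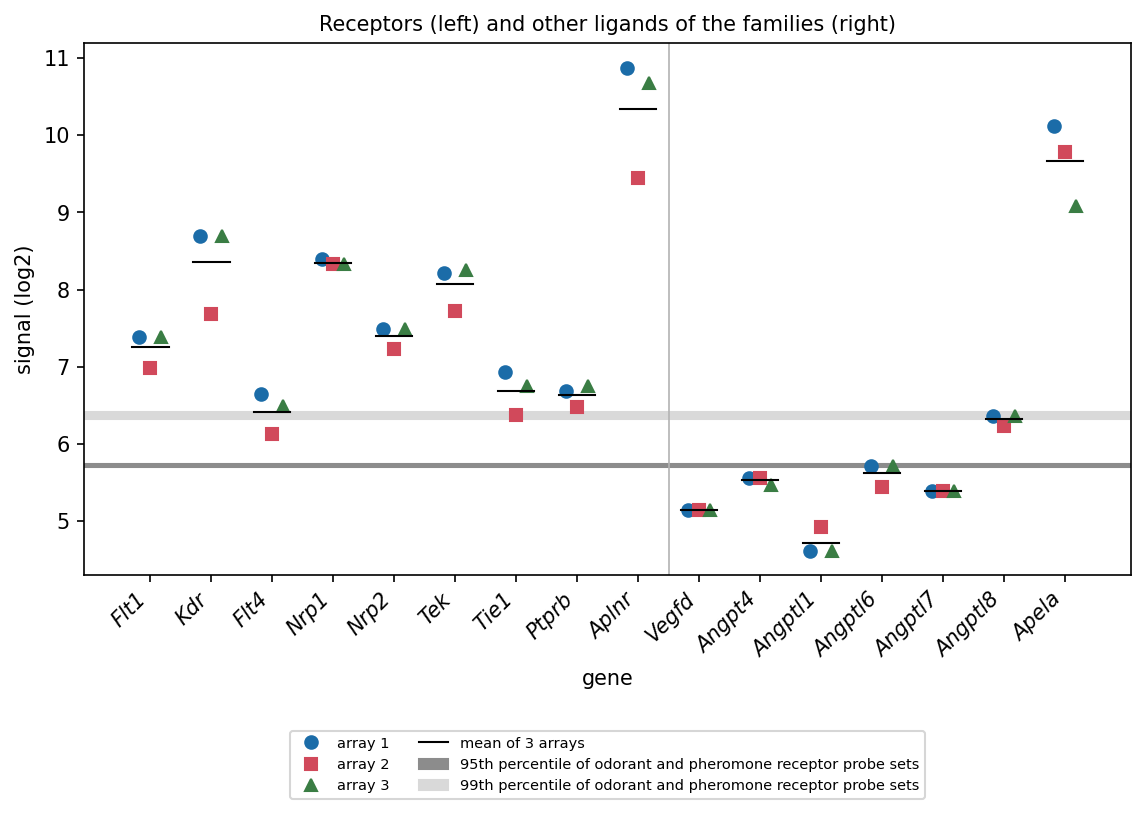
Log2 signal (y axis) of the 9 receptor and co-receptor genes (left of the line) and the 7 other measured ligand genes of the families (right) on each array, with means and background bands as in the plot of the ligand genes. For 8 of the 9 receptor genes the square of array 2 lies below the other symbols, and Apela and Angptl8 lie above the lower band.

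The arrays differed in their endothelial signal. Of 14 endothelial marker genes, 13 lay above background, against 56.1% of all genes. On array 2, 12 of the 14 were lowest, and the median of the list was 6.98 there, against 7.63 and 7.58 on arrays 1 and 3. Of the 9 receptor genes, 8 were lowest on array 2, with a median difference of -0.44 log2 units between array 2 and the mean of arrays 1 and 3. The difference ran from -1.33 for Aplnr to -0.03 for Nrp1. Of all genes, 10.4% were lowest on array 2, but 50.8% held a single value on all 3 arrays and could not be. No gene of the endothelial or receptor list held a single value, so these shares are not directly comparable. The middle 90% of all genes, tied genes included, differed by -0.28 to 0.29.

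The ligand genes varied over a narrow range between the arrays. Their differences between array 2 and the other arrays ran from -0.14 for Vegfc to 0.09 for Angpt1, with a median of 0, and 2 of the 8, Vegfc and Apln, were lowest on array 2. The 4 genes with a single value cannot show such a difference. For 14 duct marker genes, all above background against 56.1% of all genes, the median difference was also 0, with a range of -0.29 to 0.09. The median over all genes was 0 as well, so a median of 0 does not set the ligand or duct genes apart. These are values of 1 array against 2 of the same group, and no test was made. Leaving out array 2 left 6 of the 8 ligand genes above background, and 10936 of all 19938 genes. The arrays kept were those with the higher endothelial medians, so this count does not bear on endothelial RNA in the ligand signals. The share of endothelial RNA in the ligand signals was not tested, and fewer endothelial cells and less RNA per cell cannot be told apart.

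**Figure D3:**
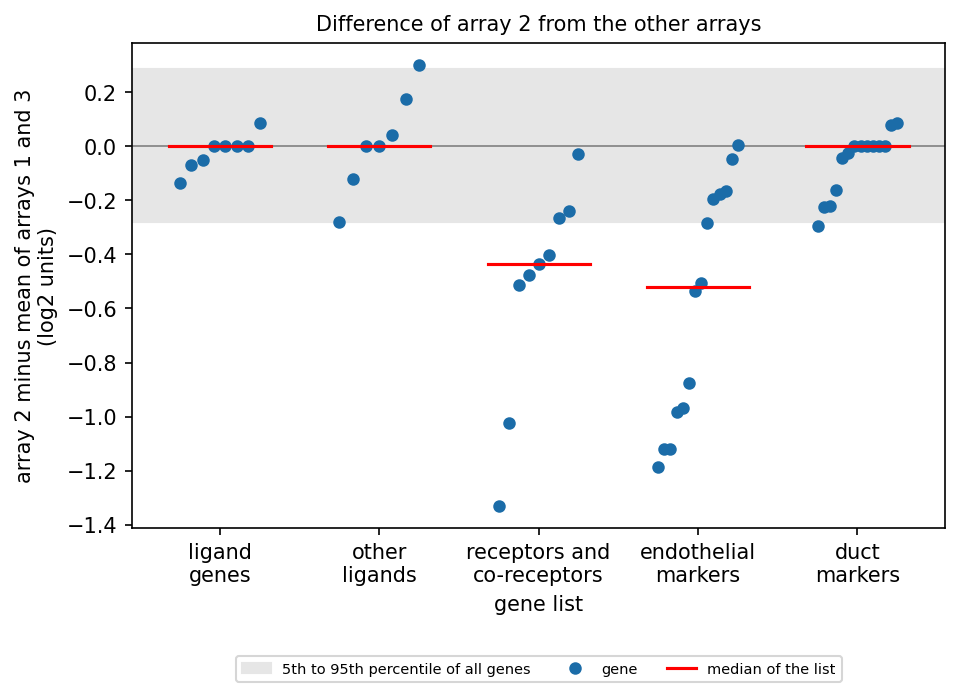
Difference in log2 signal between array 2 and the mean of arrays 1 and 3 (y axis) for each gene of 5 lists (x axis), with the list's median in red and the 5th to 95th percentile of all genes as a grey band. The 8 ligand genes lie inside the band, and the receptor and endothelial medians of -0.44 and -0.52 lie below it.

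Markers of other cell types that the sort could hold were read beside these. For comparison, 56.1% of all genes passed at the 95th percentile and 36.1% at the 99th. Of 3 genes of sprouting endothelial tip cells, which are known to make Angpt2 and Apln, 2 passed, Dll4 at 6.11 and Unc5b at 5.81, each a single value, and neither passed at the 99th percentile. Esm1, at 4.94 ± 0.03 (SD, n = 3), did not pass. In the list of mural cells and stroma, a known source of Angpt1, 3 of 11 genes passed. These were Col1a1 at 6.75 (a single value), Cspg4 at 5.93 ± 0.04 and Tagln at 5.90 ± 0.0045 (SD, n = 3). Pdgfrb, Rgs5, Acta2 and Pdgfra were among those that did not. Acta2, at 5.75, 5.35 and 6.58 on arrays 1, 2 and 3, nevertheless exceeded the 99th percentile of background on array 3. Pdgfra, at 5.88 ± 0.18 (SD, n = 3), lay above the 95th percentile on each array. The list's median was 5.44, 5.35 and 5.78 on arrays 1, 2 and 3. Of the metanephric mesenchyme list 3 of 6 passed, and 1 did at the 99th percentile, Cited1 at 7.71 ± 0.17 (SD, n = 3). Of the macrophage list 1 of 7 passed, and of the red cell list 0 of 5 in limma. The globin gene Hbb-y nevertheless stood at 10.02 on array 1, while the other arrays gave 5.31 and 5.45. Leaving out array 1 left 6 of the 8 ligand genes above background, and 11002 of all 19938 genes.

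Of 6 measured genes that process or break down the ligands, 4 passed, near the 56.1% of all genes, and at the 99th percentile 1 did, against 36.1% of all genes. That gene was Mme, encoding neprilysin, a peptidase that cleaves apelin, at 8.36 ± 0.40 (SD, n = 3). Mme read 8.79, 8.02 and 8.25 on arrays 1, 2 and 3, lowest on array 2 as most endothelial markers were. Of the 6 genes, 2 were lowest there, and the part of other cells in the Mme signal was not tested. Furin, a protease that matures VEGF-C and apelin precursors, read 6.41 (a single value), and Pcsk7, a related protease, read 5.69 ± 0.11 (SD, n = 3) and did not pass. Adamts3, which cleaves VEGF-C, passed from the brightest of its 16 probe sets at 6.24 (a single value), and the others read 2.94 to 5.85. Its partner Ccbe1, at 5.71 (a single value), did not pass.

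Vegfa and Angptl4 are textbook targets of the hypoxia-inducible factors, and 7 of 10 further target genes lay above background. The glycolytic genes Pgk1 and Ldha read 11.45 ± 0.06 and 9.77 ± 0.10 (SD, n = 3), and Car9, a carbonic anhydrase, read 4.67 (a single value) and did not pass. Named after its value was seen, the glucose transporter gene Slc2a1 read 10.22, 8.68 and 9.38 on arrays 1, 2 and 3. It was lowest on array 2, as most endothelial markers were, and highest on array 1, as Hbb-y was, and the part of other cells in its signal was not tested. Slc2a1 was the only 1 of the 10 target genes to be lowest on array 2, and 3 were highest there. Adm, the angiogenic peptide gene adrenomedullin, held at 5.07 the same value as Pgf and did not pass. Since 56.1% of all genes passed, these counts say little about the list.

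Secreted factors outside the 3 families were read for comparison. Of 11 angiogenic factors 6 passed, near the 56.1% of all genes, and 6 did at the 99th percentile, which 36.1% of all genes passed. The heparin-binding growth factor genes Mdk and Ptn read 10.42 ± 0.09 and 9.22 ± 0.28 (SD, n = 3). Fgf2, at 4.47 (a single value), did not pass. Of the 11 factors, 2 were lowest on array 2, Mdk and Ccn1, and 2 were highest there. Ccn1 read 8.83, 7.62 and 7.89 on arrays 1, 2 and 3. Of 6 inhibitors of vessel growth 5 passed and 3 did at the 99th percentile, against the same shares of all genes, with the matrix protein gene Sparc at 10.69 ± 0.86 and Serpinf1, encoding pigment epithelium-derived factor, at 7.80 ± 0.63 (SD, n = 3). Thbs2, at 5.59 (a single value), did not pass. Sparc was lowest on array 2, with 11.20, 9.70 and 11.18 on arrays 1, 2 and 3, as most endothelial markers were. It was the only 1 of the 6 inhibitor genes to be lowest there.

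Among the ligand genes above the cutoff on all arrays, Angpt1 had the widest range, 0.28 log2 units. The genes nearest to it in profile over the 3 arrays, out of 1669 with a range of at least 0.5 log2 units, were Shroom4, Rtca, Tspan15, Lage3 and Dguok. The Euclidean distance between profiles centred on their own means was 0.17 to 0.18 log2 units. Genes with a range as narrow as that of Angpt1 were not searched, so closer profiles may exist. All 5 were highest on array 1 and lowest on array 3, as Angpt1 was, which follows from choosing them by likeness. A profile of 3 arrays holds little information, and this likeness is a description only.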

How the data were processed

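The authors deposited 1 table of log2 signals, with 35557 probe sets on 3 arrays; the log2 scale was read from its range, 1.90 to 14.2, and no scanner file was used here. Per the submitters' processing notes, Affymetrix Expression Console was used; its version, the summarising algorithm and the normalization were not given in the sources. The medians over all probe sets were 5.85, 5.90 and 5.86.

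The platform annotation gave 21789 probe sets a single symbol, 1621 several, which were left out, and 12147 none here; 21698 matched RefSeq's gene table (GRCm38.p6) by Entrez number and 0 symbols changed. For each gene the probe set of highest mean was used. An intercept-only model of the distance to each array's cutoff was fitted in R 4.3.3 with limma 3.58.1 and its moderated variance, and one-sided p-values were adjusted by Benjamini-Hochberg over all single-symbol probe sets. The test was checked on simulated data with independent noise and no ties, so the check does not cover genes with tied values. Without array 3, limma gave all genes a common spread. The members and lists were chosen with earlier results of these data known. Text names every ligand, receptor and family gene, of other pathway lists the 2 highest and the lowest, cell type markers where a result touches them, and the 5 nearest profiles; further genes were named after their values were seen. Alternatives were other cutoffs, background sets, probe set rules, scalings, tied spreads and each array left out. A planned comparison of protein sequences was not run.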

Additional observations from a re-analysis of the deposited data

How the results depend on the processing

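The number of arrays and the signal over background limit these results, and the choice of cutoff moves the counts most. Of the 8 ligand genes, 3 passed at the 99th percentile and 3 at a cutoff 1 log2 unit higher, in place of 6. Of the 49 measured genes of the other pathway lists, 19 passed with the raised cutoff and 25 at the 99th percentile, in place of 33. The shares of all genes were 28.3%, 36.1% and 56.1%. The settings other than these cutoffs gave 5 to 8 ligand genes and 31 to 45 pathway genes, and leaving out an array gave 5 to 6 and 31 to 33. The count of all genes moved as well, from 10354 without array 3 to 15005 of 19938 with the cutoff at the 30th percentile of all probe sets. That last setting gave the highest ligand and pathway counts. Some genes called above background fell below the stricter cutoffs. At the 99th percentile the mean distances were -0.51 for Angptl4 and -0.063 for Angptl8. With the raised cutoff they were -0.22 for Angpt2, -0.84 for Angptl4, -0.29 for Apln, -0.40 for Angptl8, -0.29 for Flt4, -0.025 for Tie1 and -0.075 for Ptprb. These follow from the higher cutoff alone. Centring the arrays on their medians shifted them by at most 0.02 log2 units and took the ligand genes' median difference of array 2 to -0.01. No paired analysis was possible because the series has a single group.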
